A study of Homo sapiens with 12 samples.

Results

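The genes described here are 8 enzymes of the pentose phosphate pathway and of cytosolic NADPH supply, chosen by their symbols: PGLS, PGD, RPIA, RPE, TKT, TALDO1, ME1 and IDH1. They were read through every probe set whose platform annotation gave exactly 1 symbol and that symbol was one of the 8. This gave 22 of 54675 probe sets and 8 of 19775 genes: 4 probe sets for PGLS, 4 for RPE, 3 each for PGD, TKT, ME1 and IDH1, and 1 each for RPIA and TALDO1. A further probe set that listed RPE together with a second gene was not used.

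The measurements came from 12 Affymetrix arrays of KOPT-K1 and HPB-ALL, which are established human T-cell acute lymphoblastic leukaemia lines, so every value describes a leukaemic line in culture and not normal T cells. Each line was given SAHM1, a hydrocarbon-stapled peptide made to block the NOTCH transcription complex, at 20 µM for 24 hours, or only DMSO, the solvent, for the same time. The 4 groups were KOPT-K1 with DMSO, KOPT-K1 with SAHM1, HPB-ALL with DMSO and HPB-ALL with SAHM1, with 3 cultures and 3 arrays each. No control peptide group was analysed here, so the comparison is of the peptide in DMSO with DMSO.

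The pentose phosphate pathway runs alongside glycolysis. Its oxidative branch turns glucose 6-phosphate into ribulose 5-phosphate and makes NADPH, the reducing power for lipid and deoxyribonucleotide synthesis and for keeping glutathione reduced; its non-oxidative branch moves carbon reversibly between pentose phosphates, which feed nucleotide synthesis, and glycolytic intermediates. Malic enzyme and cytosolic isocitrate dehydrogenase make NADPH outside the pathway, and proliferating lymphoid cells draw on all of these sources.

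The deposited values are ratios: on every one of the 54675 probe sets the 3 DMSO arrays of a line averaged 1 (within 1e-06). Differences between SAHM1 and DMSO within a line can therefore be read, but the level of a gene, and levels between genes or between lines, cannot. For the same reason the T-cell identity of the lines could not be checked on levels; of 10 T lineage markers measured, 1 was called lower in KOPT-K1, and 1 higher and 2 lower in HPB-ALL. Over all genes 13.2% were called lower and 5.85% higher in KOPT-K1, and 4.38% lower and 4.96% higher in HPB-ALL. In each line 8 of the 10 lay below 0, as did 9887 of 19775 genes in KOPT-K1 and 11130 in HPB-ALL. The 2 called lower in HPB-ALL were CD7, a surface protein of early T cells (log2 difference -0.51 ± 0.11, adjusted p = 0.0145), and LCK, the kinase of T-cell receptor signalling (-0.22 ± 0.06, adjusted p = 0.0455). The 1 called higher there was CD3G, a subunit of the receptor complex (0.71 ± 0.18, adjusted p = 0.0300). In KOPT-K1 these stood at -0.26, 0.12 and -0.50, none called, and CD28, a costimulatory receptor, was the 1 called lower (-0.24 ± 0.07, adjusted p = 0.0365). HES4, DTX1, HES1 and MYC, known targets of NOTCH, fell in both lines, 4 of 4, with medians of -0.78 (KOPT-K1) and -0.94 (HPB-ALL). Of all genes 13.2% fell in the first line and 4.38% in the second. The 4 targets were chosen with earlier results of these data known, so they are not an independent check of the block. The 18S ribosomal RNA control probes were 2.19 log2 units higher on the SAHM1 than on the DMSO arrays of HPB-ALL and differed by -0.26 in KOPT-K1. The hybridization spikes were 0.83 higher on the SAHM1 arrays of KOPT-K1 and differed by -0.39 in HPB-ALL.

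Gene values below are the mean log2 ratio over a gene's probe sets, differences are SAHM1 minus DMSO on the log2 scale ± standard error with n = 3 arrays per group, and adjusted p-values come from limma over all 19775 genes (or all 54675 probe sets) with Benjamini-Hochberg adjustment; a gene is said to be called, to rise or to fall where the adjusted p is under 0.05. The p-values set a difference only against the spread among cultures of one experiment, estimated over the 4 groups together. In such bulk RNA fewer cells of a kind and less RNA per cell cannot be told apart. An exact two-sided permutation test of 3 arrays against 3 cannot go below p = 0.10, so it could not pass the threshold for any single gene.

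Of the 8 enzymes, none was called in KOPT-K1 by limma, against a background of 13.2% of all genes called lower and 5.85% called higher there; 1 of the 8 had an unadjusted p under 0.05. In HPB-ALL 1 of 8 fell, transketolase (TKT), where 4.38% of all genes were called lower and 4.96% higher; 3 of the 8 had an unadjusted p under 0.05. Over the mean of both lines TKT was again the 1 member called lower (-0.28 ± 0.05, adjusted p = 0.00263), against 8.13% of all genes. The responses of TKT and IDH1 were lower in HPB-ALL than in KOPT-K1, 2 of 8, in a test of the difference that called 5.41% of all genes in that direction. The median difference of the 8 was -0.03 in KOPT-K1 and -0.10 in HPB-ALL, and the median of all genes was 1.99e-05 and -0.02.

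Read without a test, the 3 SAHM1 arrays of KOPT-K1 all lay above the 3 DMSO arrays for 1 member, IDH1, where 13.5% of all genes did so, and all below for 1 member, RPE, where 21.6% did. In HPB-ALL they lay below for 4 members, PGD, TKT, TALDO1 and IDH1, where 15.7% of all genes did so, and above for none, where 13.4% did. The plot of the members on each array shows these separations.

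**Figure D1:**
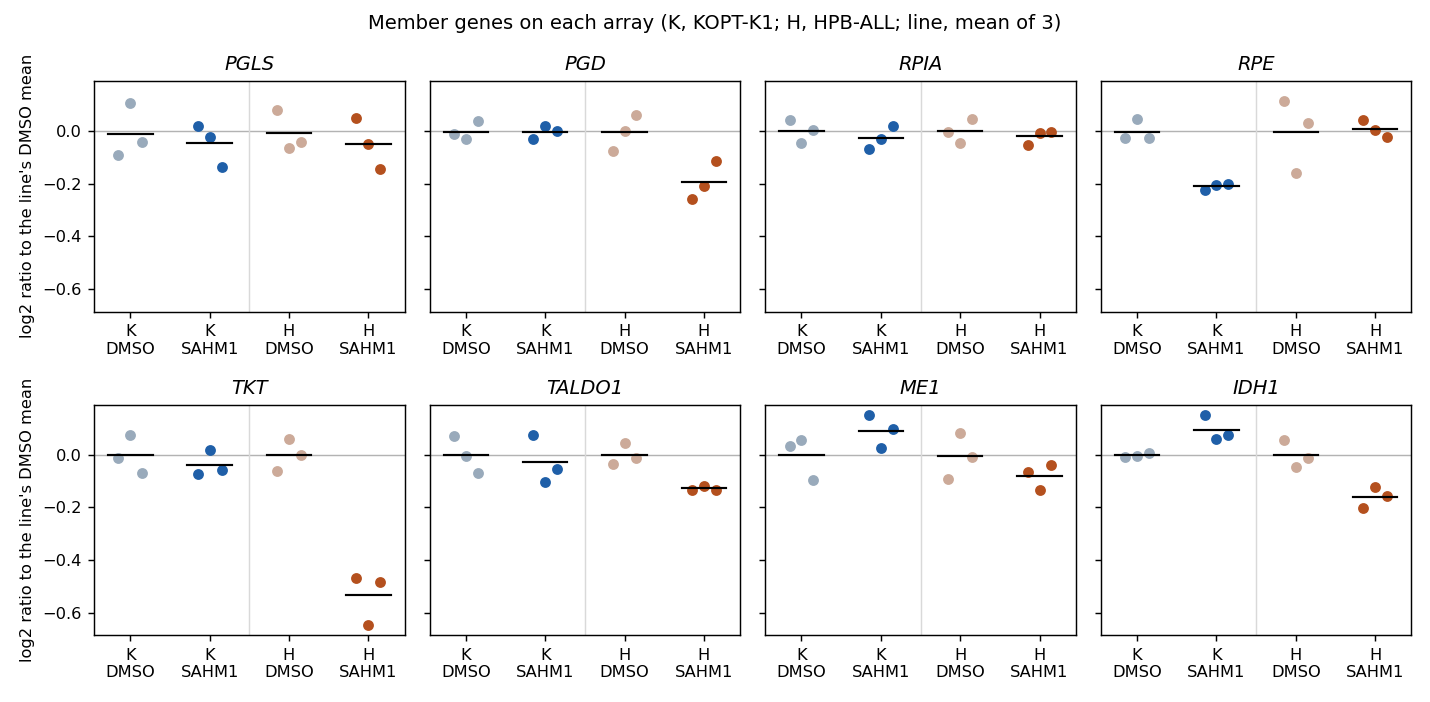
Log2 ratio of each member gene to its line's DMSO mean (vertical axis) on each of the 12 arrays, by line and treatment (K, KOPT-K1; H, HPB-ALL); points are arrays and lines are group means of 3. The TKT points of HPB-ALL with SAHM1, from -0.65 to -0.47, stand furthest from 0; RPE in KOPT-K1, at -0.22 to -0.20 with SAHM1, and IDH1, on opposite sides of 0 in the lines, also show separate groups.

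To show the DNA from which these genes are transcribed, the 250 bases before the RefSeq start (GRCh38.p14) are given for 4 members: TKT, the gene called in HPB-ALL, PGD and RPE, which had single probe sets called, and ME1, an established target of the oxidative stress factor NRF2. TKT lies at chr3:53224712-53256022 on the minus strand and its window at chr3:53256023-53256272. PGD lies at chr1:10399064-10420511 on the plus strand with its window at chr1:10398814-10399063, RPE at chr2:210002638-210022260 on the plus strand with its window at chr2:210002388-210002637, and ME1 at chr6:83210402-83431051 on the minus strand with its window at chr6:83431052-83431301. The other members lie at chr19:17511649-17521288 (PGLS), chr2:88691673-88750929 (RPIA), chr11:747464-765012 (TALDO1) and chr2:208236227-208255071 (IDH1). All sequences are printed 5′ to 3′ along the gene's strand, and capitals mark matches to the motifs searched for on both strands.
TKT: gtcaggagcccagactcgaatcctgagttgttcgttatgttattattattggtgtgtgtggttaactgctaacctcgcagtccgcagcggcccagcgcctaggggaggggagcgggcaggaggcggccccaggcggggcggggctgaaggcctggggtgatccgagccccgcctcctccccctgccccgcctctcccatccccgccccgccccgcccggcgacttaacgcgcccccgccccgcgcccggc
PGD: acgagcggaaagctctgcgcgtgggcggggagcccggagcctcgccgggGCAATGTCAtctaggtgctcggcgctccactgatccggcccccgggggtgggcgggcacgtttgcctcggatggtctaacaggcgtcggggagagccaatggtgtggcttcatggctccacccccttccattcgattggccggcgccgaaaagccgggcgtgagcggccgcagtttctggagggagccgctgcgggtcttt
RPE: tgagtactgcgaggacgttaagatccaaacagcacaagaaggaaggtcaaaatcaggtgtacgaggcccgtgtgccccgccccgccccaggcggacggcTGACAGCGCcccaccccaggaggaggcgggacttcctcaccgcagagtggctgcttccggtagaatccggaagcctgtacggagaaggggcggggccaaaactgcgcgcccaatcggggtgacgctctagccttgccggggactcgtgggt
ME1: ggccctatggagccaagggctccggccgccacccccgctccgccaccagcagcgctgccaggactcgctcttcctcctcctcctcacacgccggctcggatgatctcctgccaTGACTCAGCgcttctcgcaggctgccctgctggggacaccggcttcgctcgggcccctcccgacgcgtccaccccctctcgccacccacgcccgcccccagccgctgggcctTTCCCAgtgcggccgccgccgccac
The motifs were CACGTG, the E-box bound by MYC and MAX, TGACNNNGC, the core of the antioxidant response element bound by NRF2, and TGGGAA, the core read by the NOTCH complex through RBPJ. TGACNNNGC was found upstream of 4 of the 8 members, PGD (reading TGACATTGC on the opposite strand, 201 to 193 bases before the start), RPE (TGACAGCGC, 151 to 143 bases before), ME1 (TGACTCAGC, 137 to 129 bases before) and IDH1 (TGACTCCGC, 143 to 135 bases before the second of its 2 listed starts), and it is present in 10.9% of 35116 RefSeq promoter windows of this length. TGGGAA was found upstream of RPIA and ME1, both on the opposite strand, and in 20.8% of all windows; CACGTG was found upstream of none of the 8 and in 6.34% of all windows. A match describes the letters only, and the TKT window, which held none of the 3 motifs, says nothing about what binds elsewhere.

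TKT encodes transketolase, which moves 2-carbon units between sugar phosphates and links the pentose pathway to fructose 6-phosphate and glyceraldehyde 3-phosphate. In HPB-ALL its log2 values were -0.06, 0.06 and -0.00 with DMSO and -0.47, -0.65 and -0.48 with SAHM1. The groups did not overlap and the gene fell by 0.53 ± 0.07 (95% interval -0.68 to -0.38, adjusted p = 6.13e-04), a level 1.44-fold lower. In KOPT-K1 its values were -0.01, 0.07 and -0.07 with DMSO and -0.07, 0.02 and -0.06 with SAHM1. There the arrays overlapped and the difference was -0.03 ± 0.07 (95% interval -0.18 to 0.11, adjusted p = 0.768). The response in HPB-ALL was lower than that in KOPT-K1 by a tested difference of -0.50 ± 0.10 (95% interval -0.70 to -0.29, adjusted p = 0.00453). On the HPB-ALL arrays the 18S control moved with the treatment, at 1.35 to 1.89 with SAHM1 and -1.65 to 1.05 with DMSO. With the 18S level as a covariate TKT stood at -0.45 in HPB-ALL (adjusted p = 0.178) and the difference between lines at -0.41 (adjusted p = 0.173). Every SAHM1 array of HPB-ALL had more 18S signal than every DMSO array, so 18S and treatment cannot be fully told apart in that line. The covariate also widened standard errors there, for PGD from 0.060 to 0.095. A call lost with 18S, here or below, therefore does not show what part 18S had. The part of 18S in the fall was not tested further. Quantile normalization kept the fall in HPB-ALL (adjusted p = 0.00628) but not the call of the difference between lines (-0.49, adjusted p = 0.0571). That setting gives all arrays 1 shared spread. The deposited ratios, set to the DMSO mean, spread less on the DMSO than on the SAHM1 arrays. A call lost under it, here or below, is therefore not an independent check.

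**Figure D2:**
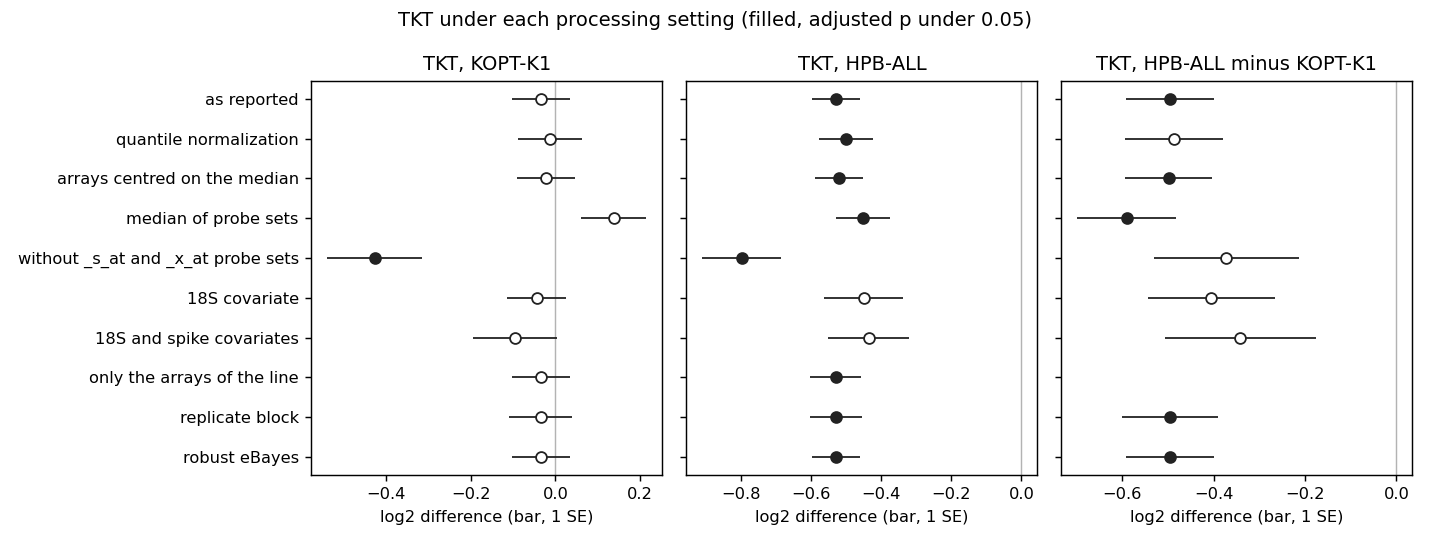
Log2 difference of TKT between SAHM1 and DMSO in KOPT-K1 and in HPB-ALL and, at the right, the difference of those responses (HPB-ALL less KOPT-K1; horizontal axes, bars 1 SE), under each processing setting (vertical axis); filled points have an adjusted p under 0.05. In HPB-ALL every point lies below 0 and the 2 open ones are the settings with 18S as a covariate, at -0.45 and -0.44.

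The gene-level value of TKT in KOPT-K1 averages probe sets that did not move together. Probe set 228205_at had deposited ratios of 0.931, 1.14 and 0.928 with DMSO and 0.668, 0.888 and 0.685 with SAHM1 in KOPT-K1, and fell there by 0.43 ± 0.12 (adjusted p = 0.0287). In HPB-ALL its ratios were 0.965, 1.07 and 0.961 with DMSO and 0.572, 0.552 and 0.600 with SAHM1, and it fell by 0.80 ± 0.12 (adjusted p = 0.00277). This probe set was thus lower with SAHM1 in both lines, with no overlap of the arrays, and its responses in the 2 lines were not called different (-0.37 ± 0.17, adjusted p = 0.176). The KOPT-K1 call is carried by few arrays: it is lost without DMSO replicate 2 (-0.33, adjusted p = 0.114), without SAHM1 replicate 1 (adjusted p = 0.0892) and without SAHM1 replicate 3 (adjusted p = 0.0853). It is lost too with quantile normalization (-0.27, adjusted p = 0.578), with 18S and spikes as covariates (-0.53, adjusted p = 0.168) and with the arrays of that line alone (adjusted p = 0.0964). The HPB-ALL call is lost with 18S (-0.78, adjusted p = 0.378) and with 18S and spikes (-0.75, adjusted p = 0.483) as covariates.

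The other two TKT probe sets were called lower in HPB-ALL and lay above DMSO in KOPT-K1 without passing the test there. Probe set 208699_x_at had SAHM1 ratios of 1.17, 1.10 and 1.13 in KOPT-K1, all above the DMSO ratios of 1.01, 1.02 and 0.967, and SAHM1 ratios of 0.778, 0.645 and 0.787 in HPB-ALL, all below the DMSO ratios of 0.961, 1.04 and 0.998. Its difference was 0.18 ± 0.09 in KOPT-K1 (adjusted p = 0.188) and -0.45 ± 0.09 in HPB-ALL (adjusted p = 0.0130), and the responses differed by -0.63 ± 0.12 (adjusted p = 0.00685). Probe set 208700_s_at had SAHM1 ratios of 1.10, 1.06 and 1.14 against DMSO ratios of 1.04, 0.998 and 0.964 in KOPT-K1, and of 0.851, 0.735 and 0.777 against 0.948, 1.01 and 1.04 in HPB-ALL. It gave 0.14 ± 0.08 in KOPT-K1 (adjusted p = 0.280) and -0.35 ± 0.08 in HPB-ALL (adjusted p = 0.0275), a difference of -0.48 ± 0.11 (adjusted p = 0.0160). Without HPB-ALL DMSO replicate 2 or SAHM1 replicate 2 neither was called in HPB-ALL (adjusted p = 0.0607 and 0.0599 for 208699_x_at, 0.0986 and 0.127 for 208700_s_at), and 208700_s_at was not called without DMSO replicate 3 (0.104) or SAHM1 replicate 3 (0.0862) either. Both lost the HPB-ALL call with quantile normalization (adjusted p = 0.0676 and 0.166) and with 18S as a covariate, where 208699_x_at stood at -0.34 (adjusted p = 0.784) and 208700_s_at at -0.23 (adjusted p = 0.909), and 208700_s_at lost it with the arrays of HPB-ALL alone (adjusted p = 0.0661). The call of the difference between lines was lost for both with quantile normalization (adjusted p = 0.129 and 0.218), with 18S (0.235 and 0.369) and with 18S and spikes (0.544 and 0.673).

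On Affymetrix arrays the suffixes _x and _s mark probes that can also match other transcripts, and 228205_at carries neither. Relative to the mean of the other two, 228205_at stood at -0.77, -0.28 and -0.73 on the SAHM1 arrays of KOPT-K1 against -0.14, 0.17 and -0.06 with DMSO, and at -0.51, -0.32 and -0.38 against 0.02, 0.07 and -0.08 in HPB-ALL, so it was the lower one under SAHM1 in both lines; this contrast was chosen after the values were seen. The 3 TKT responses spanned 0.61 in KOPT-K1 and 0.45 in HPB-ALL, and of the 2778 genes with 3 probe sets 11.4% and 12.3% spanned at least as much.

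**Figure D3:**
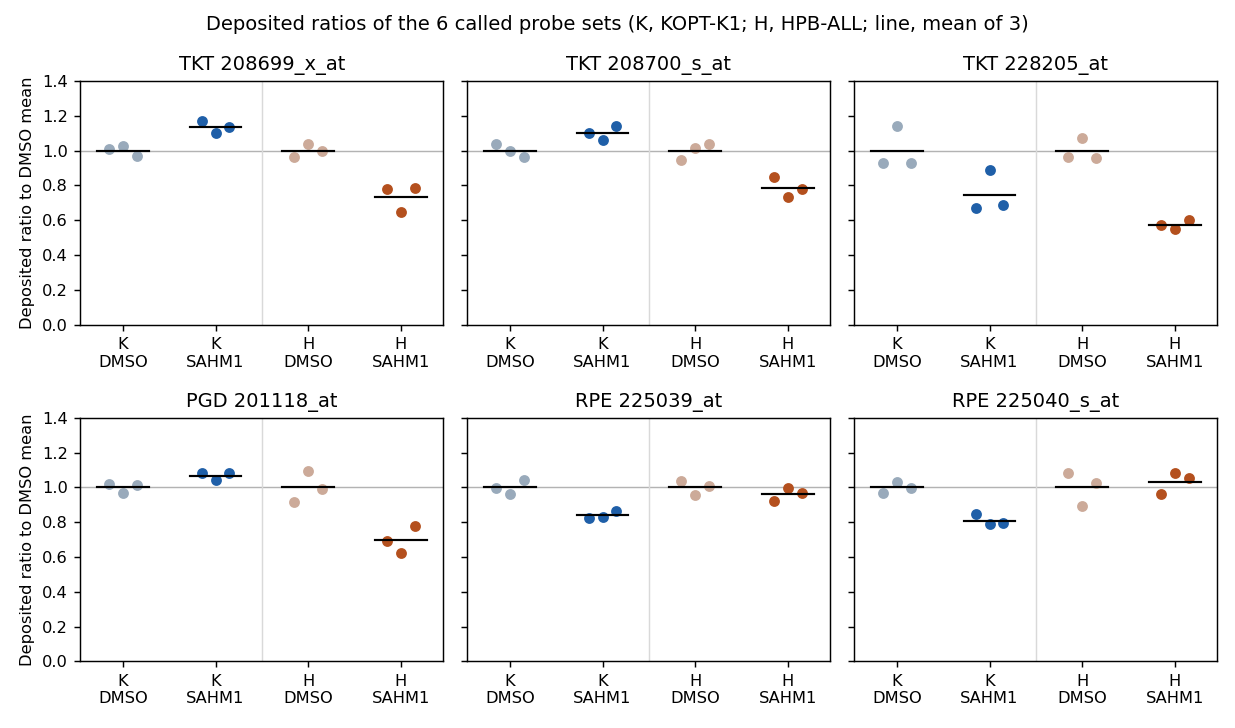
Deposited ratio to the line's DMSO mean (vertical axis, from 0) on each array for the 6 probe sets of TKT, PGD and RPE that were called in at least 1 line; points are arrays and lines are means of 3 (K, KOPT-K1; H, HPB-ALL). TKT 228205_at is lower with SAHM1 in both lines (means 0.747 and 0.574), the other TKT probe sets and PGD 201118_at are lower with SAHM1 in HPB-ALL, and the RPE probe sets in KOPT-K1.

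The genes whose 12 log2 values lay closest to those of TKT were OGFR, the opioid growth factor receptor (root mean square difference 0.0483), PRELID1, a carrier of phosphatidic acid in mitochondria (0.0610), and DANCR, a non-coding RNA (0.0635). They stood at -0.07, -0.05 and -0.04 in KOPT-K1; their HPB-ALL values were -0.48, -0.46 and -0.47. Its paralog TKTL1, transketolase-like 1, fell by 0.63 ± 0.12 in HPB-ALL (adjusted p = 0.00570) and stood at -0.15 ± 0.12 in KOPT-K1 (adjusted p = 0.417), with a difference between lines of -0.48 ± 0.17 that was not called (adjusted p = 0.0678). TKTL2, the other paralog, stood at 0.08 in HPB-ALL and at -0.00 in KOPT-K1 and was not called.

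PGD encodes 6-phosphogluconate dehydrogenase, the NADPH-making step that releases ribulose 5-phosphate. Its gene value was -0.08, -0.00 and 0.06 with DMSO and -0.26, -0.21 and -0.11 with SAHM1 in HPB-ALL. The groups did not overlap, but the difference of -0.19 ± 0.06 (95% interval -0.32 to -0.06) did not pass (adjusted p = 0.0727). It moved to -0.06 with the median of its probe sets (adjusted p = 0.697) and to -0.08 with 18S as a covariate (adjusted p = 0.933). In KOPT-K1 it was -0.00 ± 0.06 (95% interval -0.13 to 0.13, adjusted p = 0.993), and the difference between lines was -0.19 ± 0.09 (adjusted p = 0.157).

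Of the PGD probe sets, 201118_at was called. Its deposited ratios in HPB-ALL were 0.915, 1.10 and 0.989 with DMSO and 0.689, 0.625 and 0.777 with SAHM1, and it fell by 0.52 ± 0.09 (adjusted p = 0.00845). In KOPT-K1 the SAHM1 ratios of 1.08, 1.04 and 1.08 lay above the DMSO ratios of 1.02, 0.966 and 1.01, by 0.09 ± 0.09 (adjusted p = 0.563), and the responses of the lines differed by -0.62 ± 0.13 (adjusted p = 0.0109). PGD 1560942_at and 1560943_s_at stood at 0.02 and -0.07 in HPB-ALL and at -0.06 and -0.04 in KOPT-K1, none of them called. The PGD probe sets thus spanned 0.54 in HPB-ALL, a span reached by 6.95% of genes with 3 probe sets. With the 18S level as a covariate 201118_at stood at -0.34 in HPB-ALL (adjusted p = 0.788), and with quantile normalization at -0.49 (adjusted p = 0.0662); the difference between lines was not called under either (adjusted p = 0.348 and 0.178).

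PGLS encodes 6-phosphogluconolactonase, which opens the lactone ahead of PGD. Its values were 0.08, -0.06 and -0.04 with DMSO and 0.05, -0.05 and -0.14 with SAHM1 in HPB-ALL, and -0.09, 0.10 and -0.04 against 0.02, -0.02 and -0.14 in KOPT-K1. The groups overlapped in both lines, with differences of -0.04 ± 0.08 in HPB-ALL (95% interval -0.20 to 0.13, adjusted p = 0.834) and -0.04 ± 0.08 in KOPT-K1 (adjusted p = 0.779). Its 4 probe sets were spread on both sides of 0: 1554316_at stood at 0.41 ± 0.16 in HPB-ALL (adjusted p = 0.197) and -0.26 in KOPT-K1, and 218387_s_at at -0.15 and 0.14. PGLS 218388_at stood at -0.19 and 0.06, and 230699_at at -0.21 and -0.09, in the same order, none called. The arrays of 218387_s_at did not overlap in either line, on opposite sides, and the test of the difference did not pass (-0.29, adjusted p = 0.126). In HPB-ALL the margin was narrow, with a highest SAHM1 ratio of 0.931 and a lowest DMSO ratio of 0.933.

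RPE encodes ribulose-5-phosphate 3-epimerase, which supplies xylulose 5-phosphate to transketolase. In KOPT-K1 its values were -0.03, 0.04 and -0.03 with DMSO and -0.22, -0.21 and -0.20 with SAHM1. The groups did not overlap, and the difference of -0.21 ± 0.07 (95% interval -0.36 to -0.06) missed the threshold by little (adjusted p = 0.0521); with the median of the probe sets in place of the mean RPE was called (-0.23, adjusted p = 0.0336), as it was without HPB-ALL DMSO replicate 1 (0.0369) or 2 (0.0199), which enter through the shared estimate of spread. Other settings took RPE further from the threshold: -0.13 with quantile normalization (adjusted p = 0.658), -0.08 with 18S and spikes as covariates (adjusted p = 0.649) and -0.18 without _s and _x probe sets (adjusted p = 0.145). In HPB-ALL the values were 0.11, -0.16 and 0.03 with DMSO and 0.04, 0.00 and -0.02 with SAHM1, overlapping, with a difference of 0.01 ± 0.07 (adjusted p = 0.951). The difference between lines, 0.22 ± 0.10, was not called (adjusted p = 0.146) and turned to -0.06 with 18S and spikes as covariates (adjusted p = 0.927).

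RPE probe sets 225039_at and 225040_s_at were called in KOPT-K1. The first had ratios of 0.998, 0.961 and 1.04 with DMSO and 0.825, 0.830 and 0.862 with SAHM1, a difference of -0.25 ± 0.07 (adjusted p = 0.0356); the second had 0.970, 1.03 and 0.997 with DMSO and 0.844, 0.791 and 0.792 with SAHM1, a difference of -0.31 ± 0.09 (adjusted p = 0.0347). Each call is lost when single arrays are left out: that of 225039_at without any 1 of the 6 KOPT-K1 arrays (adjusted p 0.0510 to 0.111) or without HPB-ALL SAHM1 replicate 3 (0.0510), and that of 225040_s_at without any KOPT-K1 array except SAHM1 replicate 1 (adjusted p 0.0648 to 0.106). Neither was called with quantile normalization (-0.15, adjusted p = 0.638, and -0.19, adjusted p = 0.628), with 18S and spikes (-0.19, adjusted p = 0.404, and -0.12, adjusted p = 0.642) or with the arrays of KOPT-K1 alone (0.0983 and 0.0592), and 225039_at was not with 18S (0.0531). RPE 221770_at stood at -0.21 ± 0.08 in KOPT-K1 with no overlap of the arrays (adjusted p = 0.106), and 1558519_at at -0.06. In HPB-ALL the RPE probe sets stood at -0.06 (225039_at), 0.05 (225040_s_at), -0.03 (221770_at) and 0.08 (1558519_at), with overlapping arrays and none called.

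RPIA encodes ribose-5-phosphate isomerase, which makes the ribose 5-phosphate used for nucleotides, and TALDO1 encodes transaldolase, which moves 3-carbon units in the same branch. RPIA gave 0.04, -0.05 and 0.00 with DMSO and -0.07, -0.03 and 0.02 with SAHM1 in KOPT-K1 (-0.03 ± 0.06, adjusted p = 0.792). In HPB-ALL RPIA gave -0.00, -0.05 and 0.05 with DMSO and -0.05, -0.01 and -0.00 with SAHM1 (-0.02 ± 0.06, 95% interval -0.14 to 0.10, adjusted p = 0.891). These groups overlapped in both lines. TALDO1 gave -0.03, 0.05 and -0.01 with DMSO and -0.13, -0.12 and -0.13 with SAHM1 in HPB-ALL. Those arrays did not overlap, but the difference of -0.13 ± 0.06 (95% interval -0.26 to 0.01) did not pass (adjusted p = 0.267). In KOPT-K1 TALDO1 gave 0.07, -0.00 and -0.07 with DMSO and 0.07, -0.10 and -0.06 with SAHM1, overlapping (-0.03 ± 0.06, 95% interval -0.16 to 0.11, adjusted p = 0.807).

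IDH1 encodes the cytosolic NADP-dependent isocitrate dehydrogenase. In KOPT-K1 its values were -0.01, -0.00 and 0.00 with DMSO and 0.15, 0.06 and 0.07 with SAHM1, and in HPB-ALL 0.05, -0.05 and -0.01 with DMSO and -0.20, -0.12 and -0.16 with SAHM1. The SAHM1 arrays were all on the high side in one line and all on the low side in the other. Neither change passed alone, at 0.10 ± 0.06 in KOPT-K1 (95% interval -0.02 to 0.22, adjusted p = 0.251) and -0.16 ± 0.06 in HPB-ALL (95% interval -0.28 to -0.04, adjusted p = 0.105), while the difference between lines did, at -0.25 ± 0.08 (95% interval -0.42 to -0.08, adjusted p = 0.0435). That call is close to the threshold: with 1 array left out the adjusted p ran from 0.0481 to 0.0953, and the call was kept only without HPB-ALL DMSO replicate 2. Its probe sets 1555037_a_at, 201193_at and 242956_at stood at 0.09, -0.00 and 0.21 in KOPT-K1, where the arrays of each overlapped. The HPB-ALL values were -0.20, -0.11 and -0.16. None of these probe sets was called for the difference between lines. In the same order they gave -0.28 (adjusted p = 0.141), -0.11 (adjusted p = 0.552) and -0.37 (adjusted p = 0.119).

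ME1 encodes the cytosolic malic enzyme, which makes NADPH while turning malate into pyruvate. It gave 0.03, 0.05 and -0.09 with DMSO and 0.15, 0.03 and 0.10 with SAHM1 in KOPT-K1 (0.09 ± 0.07, 95% interval -0.05 to 0.24, adjusted p = 0.367). In HPB-ALL ME1 gave -0.09, 0.08 and -0.01 with DMSO and -0.07, -0.13 and -0.04 with SAHM1 (-0.07 ± 0.07, 95% interval -0.22 to 0.07, adjusted p = 0.602). The groups overlapped in both lines and the difference between lines, -0.17 ± 0.10, was not called (adjusted p = 0.257). Its probe sets ranged from 0.01 (211204_at) to 0.22 (204059_s_at) in KOPT-K1 and from -0.15 (211204_at, with 204059_s_at also at -0.15) to 0.08 (204058_at) in HPB-ALL.

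Among the mitochondrial paralogs, IDH2 stood at 0.21 ± 0.08 in KOPT-K1 (adjusted p = 0.0819) and -0.26 ± 0.08 in HPB-ALL (adjusted p = 0.0601), and its responses in the lines differed by -0.47 ± 0.11 (adjusted p = 0.0132). ME2 fell by 0.25 ± 0.06 in HPB-ALL (adjusted p = 0.0161) and stood at -0.13 in KOPT-K1 (adjusted p = 0.138). ME3 fell by 0.32 ± 0.08 in HPB-ALL (adjusted p = 0.0229) and stood at 0.15 in KOPT-K1 (adjusted p = 0.212), a difference of -0.46 ± 0.11 (adjusted p = 0.0129).

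Over all 22 probe sets, 3 were called lower in KOPT-K1 (TKT 228205_at and the RPE pair), where 9.79% of all probe sets were. In HPB-ALL 4 were called lower (the TKT probe sets and PGD 201118_at), where 2.06% of all probe sets were. Over the mean of both lines 1 was called lower, TKT 228205_at (-0.61 ± 0.08, adjusted p = 9.56e-04), where 5.21% were, and 3 had a lower response in HPB-ALL than in KOPT-K1, where 3.22% did. None was called higher. The SAHM1 arrays lay all above the DMSO arrays for 5 of the 22 in KOPT-K1 (12.4% of all probe sets) and all below for 4 (18.5%), and in HPB-ALL all above for 0 (12.5%) and all below for 8 (12.4%). Probe sets of 1 gene read the same RNA and are not independent replicates.

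**Figure D4:**
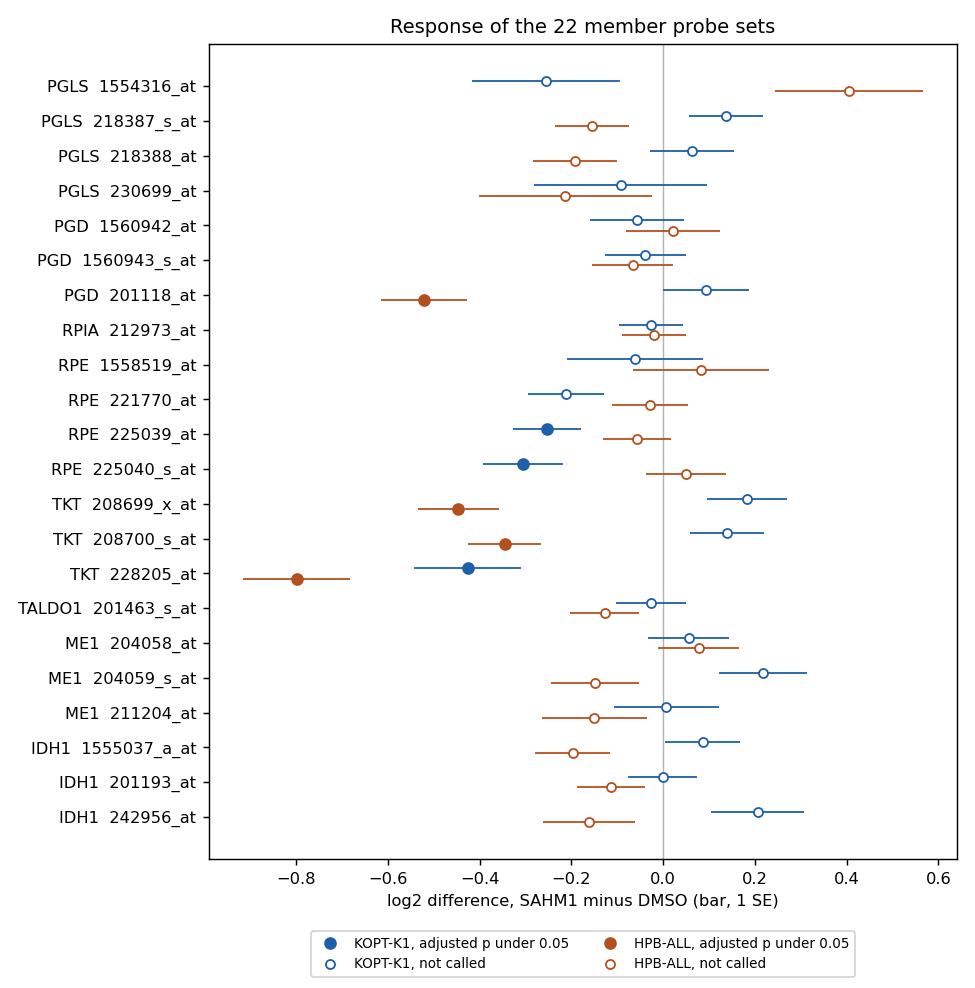
Log2 difference between SAHM1 and DMSO (horizontal axis, bars 1 SE) for each of the 22 member probe sets (vertical axis) in KOPT-K1 and in HPB-ALL; filled points have an adjusted p under 0.05 over all probe sets. The filled points are TKT 228205_at in both lines, the other TKT probe sets and PGD 201118_at in HPB-ALL, and the RPE pair in KOPT-K1, all left of 0.

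Around the 8 enzymes, the other pentose phosphate and ribose genes split in direction: of 12 measured, 1 rose and 2 fell in KOPT-K1 (median -0.08) and 1 rose and 2 fell in HPB-ALL (median -0.03). Beside this list and those below, 13.2% of all genes fell and 5.85% rose in KOPT-K1 (median 1.99e-05). In HPB-ALL 4.38% of all genes fell and 4.96% rose (median -0.02). DERA, the aldolase that breaks down deoxyribose 5-phosphate, fell by 0.26 ± 0.08 in KOPT-K1 (adjusted p = 0.0342) and rose by 0.28 ± 0.08 in HPB-ALL (adjusted p = 0.0411), a difference of 0.54 ± 0.11 (adjusted p = 0.00593). PGM2, a phosphopentomutase, fell in both, by 0.25 ± 0.07 (adjusted p = 0.0199) and 0.23 ± 0.07 (adjusted p = 0.0436). PRPS1, which turns ribose 5-phosphate into the nucleotide precursor PRPP, rose by 0.21 ± 0.07 in KOPT-K1 (adjusted p = 0.0414) and stood at -0.12 in HPB-ALL (adjusted p = 0.338); the lines differed by -0.33 ± 0.09 (adjusted p = 0.0301).

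Of 12 other NADPH-making and NADP-linked genes, 3 fell and none rose in KOPT-K1 (median -0.13), and 3 fell and 1 rose in HPB-ALL (median -0.07). MTHFD2, a mitochondrial folate dehydrogenase, fell by 1.05 ± 0.08 in KOPT-K1 (adjusted p = 4.14e-06) and rose by 0.50 ± 0.08 in HPB-ALL (adjusted p = 0.00221). NADK2, the mitochondrial NAD kinase, fell by 0.56 ± 0.06 in KOPT-K1 (adjusted p = 1.23e-04) and stood at 0.12 in HPB-ALL (adjusted p = 0.320), and GLUD1, glutamate dehydrogenase, fell by 0.26 ± 0.06 in KOPT-K1 (adjusted p = 0.0136). NADK, the cytosolic kinase that makes NADP, fell by 0.32 ± 0.07 in HPB-ALL (adjusted p = 0.0191) and stood at -0.13 in KOPT-K1 (adjusted p = 0.260).

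Of 14 measured NADPH users, 3 fell in KOPT-K1 (median -0.07) and 2 in HPB-ALL (median -0.18), and none rose; the other 7 of the 21 listed were not analysed here. In KOPT-K1 those were PYCR1, which makes proline (-1.47 ± 0.10, adjusted p = 1.62e-06), NQO1, a quinone reductase (-0.39 ± 0.09, adjusted p = 0.0116), and RRM2, a subunit of ribonucleotide reductase (-0.20 ± 0.05, adjusted p = 0.0144). In HPB-ALL they were PYCR3 (-0.42 ± 0.10, adjusted p = 0.0217) and GSR, glutathione reductase (-0.29 ± 0.07, adjusted p = 0.0195); FASN, fatty acid synthase, stood at -0.32 ± 0.10 (adjusted p = 0.0565).

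The next list held 12 glycolytic and related genes that share substrates with the pathway, among them the phosphatases TIGAR and FBP1. Of the 12, 5 fell in KOPT-K1 (median -0.19) and 8 in HPB-ALL (median -0.44), and none rose in either line. HK2, which makes the glucose 6-phosphate that enters the pathway, fell in both lines (by 0.89 ± 0.08 in KOPT-K1, adjusted p = 2.06e-05, and by 0.65 ± 0.08 in HPB-ALL, adjusted p = 5.20e-04), and GPI, which takes glucose 6-phosphate into glycolysis, fell by 0.40 ± 0.08 (adjusted p = 0.00370) and 0.62 ± 0.08 (adjusted p = 5.24e-04). HK1, the other hexokinase named, fell by 0.36 ± 0.08 (adjusted p = 0.00825) and 0.31 ± 0.08 (adjusted p = 0.0302). TPI1, which interconverts the triose phosphates, fell by 0.46 ± 0.06 in HPB-ALL (adjusted p = 4.61e-04) and stood at -0.09 in KOPT-K1 (adjusted p = 0.276), and the aldolase ALDOC fell by 1.16 ± 0.12 in HPB-ALL (adjusted p = 1.81e-04) and stood at -0.19 in KOPT-K1 (adjusted p = 0.299).

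Of 10 measured citrate, isocitrate and malate partners none was called in KOPT-K1 by limma (median -0.03, 1 with an unadjusted p under 0.05), and 1 fell in HPB-ALL (median -0.15): ACLY, which splits citrate into acetyl-CoA, by 0.42 ± 0.06 (adjusted p = 0.00162). Of 11 regulators known to act on such genes, 4 fell in KOPT-K1 (median -0.08), and 1 rose and 2 fell in HPB-ALL (median -0.10). MYC fell in both lines, by 0.69 ± 0.07 (adjusted p = 6.16e-05) and 0.65 ± 0.07 (adjusted p = 2.18e-04), and its responses were not called different (0.05 ± 0.10, adjusted p = 0.798). NFE2L2, which encodes NRF2, fell by 0.31 ± 0.07 in KOPT-K1 (adjusted p = 0.0101) and stood at 0.03 in HPB-ALL. ATF4, a factor of the amino acid response, fell by 0.36 ± 0.06 in KOPT-K1 (adjusted p = 0.00147) and rose by 0.23 ± 0.06 in HPB-ALL (adjusted p = 0.0299), and MAX, the partner of MYC, fell by 0.23 ± 0.06 in HPB-ALL (adjusted p = 0.0431). No member's own value was tested against any of these genes.

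**Figure D5:**
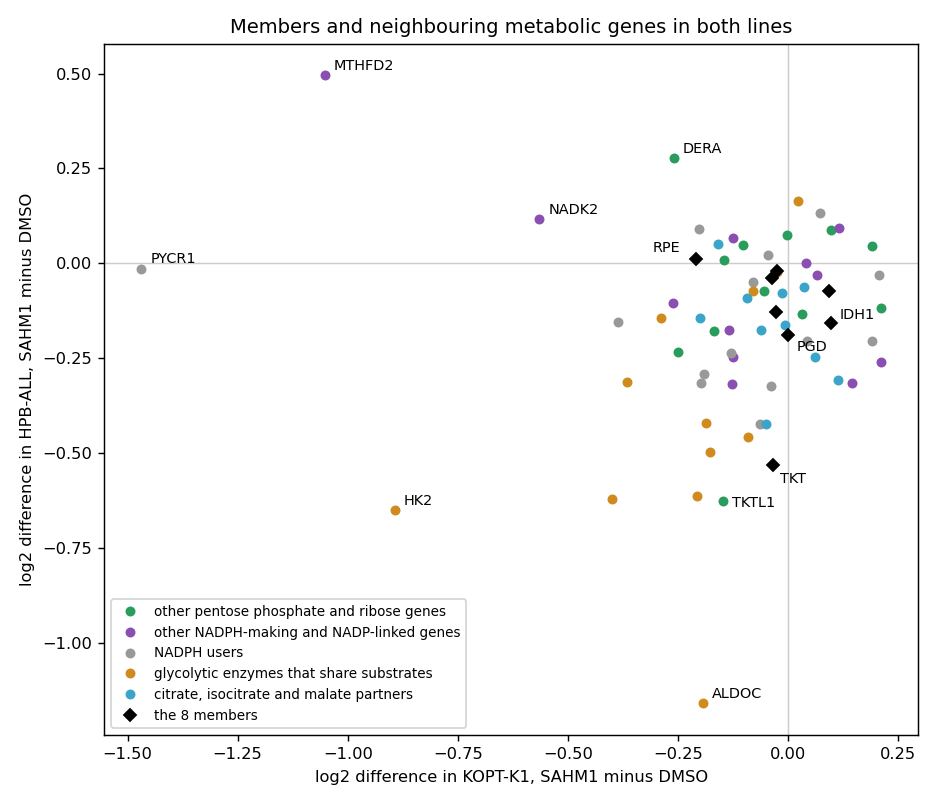
Log2 difference between SAHM1 and DMSO in KOPT-K1 (horizontal axis) and in HPB-ALL (vertical axis) for the 8 members (diamonds) and for 5 lists of neighbouring metabolic genes (circles); each point is a gene. The members lie near the origin except TKT (-0.03 and -0.53), while MTHFD2, PYCR1, HK2 and ALDOC lie far from it.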

How the data were processed

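The 12 arrays (Affymetrix human U133 Plus 2.0, 54675 probe sets) were processed by the authors with RMA, per the submitters' processing notes; its version is not given in the sources used here. What was deposited is, per probe set, a linear ratio to the mean of the line's 3 DMSO arrays (0.0827 to 6.98), so levels are lost. Probe sets were named from the platform annotation: 41097 had 1 symbol, 1801 several and 11777 were not listed, and 41043 matched a current symbol (RefSeq table, GRCh38.p14). Ratios were turned into log2 values, averaged over the probe sets of a gene, and tested by limma 3.58.1 under R 4.3.3 (functions lmFit, eBayes; 1 mean per group, 12 arrays together, 8 residual degrees of freedom) with Benjamini-Hochberg adjustment over all genes or all probe sets. The median standard error over genes was 0.08 on the log2 scale; the number of arrays limits the precision.

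The members and lists were chosen with earlier results of these data known, so nothing here is independent of them. All members and their probe sets are described. From each list up to 3 genes per line with the smallest p are named, together with the paralogs of TKT, ME1 and IDH1, MYC, and the 3 genes closest to any member called in a line. The T lineage markers called were named after their values were seen. The fit was tested on simulated data. Alternatives were quantile or median normalization, the median of probe sets, leaving out _s and _x probe sets, control probes as covariates, 1 line at a time, robust eBayes, a block, and leaving out single arrays; running them on single probe sets was added after the data were seen. No 2 arrays held identical values.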

Additional observations from a re-analysis of the deposited data

Results flagged for a closer look

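Several responses differed between the lines in the test of the difference itself (HPB-ALL response minus KOPT-K1 response, log2, limma adjusted p under 0.05). Among the members these were TKT (-0.50) and IDH1 (-0.25), and among single probe sets PGD 201118_at (-0.62), TKT 208699_x_at (-0.63) and TKT 208700_s_at (-0.48). No single IDH1 probe set was called in that test.

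Among the neighbouring, marker and NOTCH target genes named here, the response was higher in HPB-ALL for MTHFD2 (1.55), PYCR1 (1.45), NADK2 (0.68), ATF4 (0.59), CD3G (1.21), DERA (0.54), NFE2L2 (0.34) and RRM2 (0.29). It was lower in HPB-ALL for ALDOC (-0.97), IDH2 (-0.47), ME3 (-0.46), DTX1 (-0.44), LCK (-0.34), ACLY (-0.37), TPI1 (-0.37) and PRPS1 (-0.33). For MTHFD2, DERA and ATF4 the gene was called in opposite directions in the 2 lines.

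The PGLS probe set 218387_s_at was higher with SAHM1 on every array of KOPT-K1, as were 12.4% of all probe sets. It was lower on every array of HPB-ALL, as were 12.4% of all probe sets. The HPB-ALL margin was narrow, with a highest SAHM1 ratio of 0.931 and a lowest DMSO ratio of 0.933. Its difference between lines (-0.29) did not pass the limma test (adjusted p = 0.126).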

How the results depend on the processing

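Of the 8 members, none was called in KOPT-K1; 1 was with the median of probe sets (RPE) and 1 without _s and _x probe sets (TKT), and 0 to 1 with single arrays left out (1, RPE, without HPB-ALL DMSO replicate 1 or 2). TALDO1, which has only an _s probe set, was not tested without _s and _x probe sets. The 1 call in HPB-ALL became 0 with 18S, or 18S and spikes, as covariates, and stayed at 1 with each array left out. The 1 call over both lines became 0 with the median of probe sets and with either covariate setting, and was 1 with each array left out. The 2 calls for the difference between lines became 0 with quantile normalization, without _s and _x probe sets and with either covariate setting, 1 with the median of probe sets, and 1 to 2 with single arrays left out (IDH1 was lost in 11 of the 12); without _s and _x probe sets TKT stood at -0.37 (adjusted p = 0.144).

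Of the 22 probe sets, the 3 called in KOPT-K1 became 0 with quantile normalization, with 18S and spikes and with that line's arrays alone, and 0 to 3 with single arrays left out (0 without DMSO replicate 2 or SAHM1 replicate 3 of that line, 1 without any other array of it). The 4 in HPB-ALL became 1 with quantile normalization, 0 with either covariate setting, and 2 to 4 with single arrays left out (2 without DMSO or SAHM1 replicate 2). The 1 over both lines was 1 to 2 (2 without HPB-ALL SAHM1 replicate 3). The 3 for the difference became 0 with quantile normalization and with either covariate setting, and 3 to 4 with single arrays left out.

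Over all genes, 3761 calls in KOPT-K1 (30.7% higher) became 136 with quantile normalization (18.4% higher), 2498 without _s and _x probe sets and 597 with 18S and spikes (2528 to 3885 with single arrays left out). The 1846 in HPB-ALL (53.1% higher) became, in that order, 417 (33.1% higher), 1019 (63.3% higher) and 39, and 52 with 18S alone (913 to 2012; at most 1124 without any single HPB-ALL array except DMSO replicate 1). The 2232 over both lines (28% higher) became 294 (16.7% higher), 1242, 397 and 752 (1532 to 2203). The 3323 for the difference (67.8% higher) became 211 with quantile normalization, 68 with 18S and spikes (88.2% higher) and 324 with 18S (86.1% higher; 2341 to 3369 with single arrays left out). On the log2 ratios the SD over probe sets was 0.12 to 0.15 on DMSO arrays and 0.23 to 0.32 on SAHM1 arrays. Quantile normalization gives all arrays 1 shared spread, so a loss of calls under it is not an independent check. In HPB-ALL 18S moved with treatment, and the 2 cannot be fully told apart there. Without _s and _x probe sets fewer genes were tested, because genes with only such probe sets drop out. The causes were not tested.

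Whether the replicate numbers paired the cultures is not known. After group means were subtracted, same-numbered arrays of a line correlated between -0.0548 and 0.0676, and differently numbered ones between -0.0773 and 0.0616. With the number as a replicate block, 1 member (TKT) was called for the difference between lines and 1 probe set in KOPT-K1; 3 of the 4 probe sets in HPB-ALL were called, 208700_s_at being lost (adjusted p = 0.0857), as with that line's arrays alone, and its difference between lines was not called (adjusted p = 0.0528). Of 678 alternative values over 34 results, 29 turned sign, 0 of them called. A filter on low values was not run, since ratios hold no levels.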

Other observations

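Of 11 measured B, myeloid and erythroid markers, 1 was called higher and none lower in KOPT-K1 (median 0.05), and none was called in HPB-ALL by limma (median -0.02, 0 with an unadjusted p under 0.05). Of 10 T lineage markers, the median was -0.15 in KOPT-K1 and -0.09 in HPB-ALL. The median of all genes was 1.99e-05 in KOPT-K1, where 5.85% were called higher, and -0.02 in HPB-ALL, where 4.96% were.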
